A study of Mus musculus with 4 samples.

Results

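The genes described here serve cell division. They are 22 genes of DNA replication, the S phase of the cell cycle, and 26 genes of mitosis, from the G2 phase to the separation of the daughter cells. They were taken by gene symbol, with no threshold on a measured value, from a list drawn up with earlier results of these data known. All 48 were found among the 23203 symbols that stood on a single line of the deposited tables. The material was whole skin of adult C57BL/6 mice, profiled by 3′ RNA sequencing (QuantSeq, which counts reads near the 3′ end of polyadenylated transcripts). Wild-type (WT, Egr1+/+) and Egr1 knockout mice (KO, Egr1-/-, typed by PCR) were either naive, with a treatment label of SDS (the detergent sodium dodecyl sulfate, used to break the skin barrier), or treated with house dust mite (HDM) cream after SDS. HDM groups received 100 mg of cream on shaved neck and ear skin 2 times per week for 3 weeks, a mouse model of atopic dermatitis. Per its title, the study asked how the transcription factor EGR1 acts through artemin on sensory nerve density in the epidermis. Each of the 4 groups held 1 library, and the labels used here give neither the number of animals behind a library nor whether ear or neck skin was taken. A difference between groups therefore compares those libraries, with no replicate error and no p-value.

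The libraries held 9428416 to 10108661 reads recovered from the deposited values, and the members had 0 to 4014 reads each. The libraries with the KO label are called KO-labelled, because Egr1 had 3159 and 3494 reads there against 1966 and 1174 in WT. Tags at the 3′ end may lie outside the disrupted part, so this level checks no label. The male-specific transcript Ddx3y had 1925 and 2430 reads in the naive libraries and 1 in each HDM library, while the female-specific Xist had 10 and 40 against 2195 and 2433. Sex and HDM treatment therefore cannot be told apart in any comparison of HDM with naive skin. In KO-labelled naive skin, 3.28% of the 10240 genes with at least 50 reads in every other library stood at 0, against 5, 0 and 4 genes in the other libraries. Of the members, 8 stood at 0 there (Pola1, Ccne1, Ccnb1, Ccnb2, Aurka, Bub1, Hmmr and Cenpe), and 5 of them belonged to the 41 members with at least 50 reads elsewhere. No member was at 0 in any other library. Several results that rest on these zeros are also given without them.

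Cells that divide copy their DNA once and then share the copies between the daughters. Origins of replication are licensed when the ORC, CDC6 and CDT1 proteins load the MCM2-7 helicase, and E2F transcription factors switch on these genes and those for nucleotide supply late in G1. Genes of mitosis come on later. They are controlled by the DREAM complex, B-MYB and FOXM1 through a promoter element called CHR, often near CCAAT boxes bound by NF-Y. In skin, dividing cells are found mainly in the basal layer of the epidermis and in the matrix of growing hair follicles, and psoriatic, wounded or eczematous epidermis divides faster than resting epidermis.

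The promoters of both groups differed in the letters they hold. RefSeq promoters (build GRCm38.p6, 250 bases before to 50 after each start site) were given for 19 replication and 22 mitosis genes. Both strands were searched for E2F-type letters (TTCCCGC or TTGGCGC), for the CHR (TTTGAA) and for the CCAAT box (CCAAT). An E2F-type match stood in 12 of 19 replication promoters (63.2%) and in 3 of 22 mitosis promoters (13.6%), against 7.79% of the 27025 genes of the promoter table and 13.8% of the measured genes. A CHR stood in 2 of 19 replication (10.5%) and 17 of 22 mitosis genes (77.3%), against 20.2% of the table and 14.3% of the measured genes. A CCAAT box stood in 11 of 19 replication (57.9%) and 20 of 22 mitosis genes (90.9%), against 41.1% of the table and 42.1% of the measured genes. All 17 mitosis promoters with a CHR also held a CCAAT box, a pair found in 8.97% of the table's genes. Since nearly all mitosis promoters held the box, the pair says little beyond the share of each motif. Per window, the 32851 promoters held the motifs in 6.81%, 17.9% and 37.4%. A match is a description of letters, not a binding site.

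The sites below, of 30 bases each, come from members that were higher in WT HDM than in WT naive skin, and show the element that marks each group. Capitals mark the matched letters on the gene's strand, read 5′ to 3′. TTTGAA and TTCAAA are the CHR in either orientation, and GCGGGAA and GCGCCAA are the E2F-type letters reversed. The first 6 are replication genes.
Mcm5, chr8:75109349-75109378 (+): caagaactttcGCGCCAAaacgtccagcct
Mcm7, chr5:138171845-138171874 (-): gacgacgtttcGCGCCAATttcggttggcc
Cdc6, chr11:98908002-98908031 (+): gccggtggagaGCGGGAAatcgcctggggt
Uhrf1, chr17:56303278-56303307 (+): tgctttctcgcTTCCCGCcacagcgccagc
Rrm1, chr7:102441617-102441646 (+): aggagaactcgTTCCCGCcaggtccgcttt
Mcm6, chr1:128359733-128359762 (-): ATTGGacgggtTTGGCGCgaagtagctcag
The others are mitosis genes with a CHR.
Plk1, chr7:122159453-122159482 (+): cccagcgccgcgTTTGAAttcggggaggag
Ube2c, chr2:164769888-164769917 (+): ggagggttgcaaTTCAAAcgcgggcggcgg
Cenpa, chr5:30666890-30666919 (+): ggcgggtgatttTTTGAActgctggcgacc
Prc1, chr7:80294434-80294463 (+): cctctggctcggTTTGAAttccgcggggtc
Cdc20, chr4:118437344-118437373 (-): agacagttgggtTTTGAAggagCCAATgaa
In Mcm7 the E2F-type letters overlap a CCAAT box, so that the run of capitals is longer. ATTGG is the CCAAT box read on the other strand.

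Longer stretches show how the elements lie relative to each other. Each is 120 bases upstream of the start site, outside the RefSeq span of the gene and every GENCODE exon, on the gene's strand, with E2F-type, CHR and CCAAT matches in capitals.
Mcm6, chr1:128359706-128359825 (-): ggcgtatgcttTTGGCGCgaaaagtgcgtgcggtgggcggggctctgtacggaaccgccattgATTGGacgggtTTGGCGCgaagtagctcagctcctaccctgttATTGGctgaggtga
Rrm1, chr7:102441575-102441694 (+): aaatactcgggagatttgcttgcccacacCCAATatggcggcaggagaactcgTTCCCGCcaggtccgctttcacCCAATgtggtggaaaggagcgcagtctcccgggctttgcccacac
Kif11, chr19:37376262-37376381 (+): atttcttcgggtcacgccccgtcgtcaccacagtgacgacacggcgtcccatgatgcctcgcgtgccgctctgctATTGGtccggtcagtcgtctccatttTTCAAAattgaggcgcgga
In Kif11 the CHR begins 19 bases before the start site, with a CCAAT box farther upstream. No motif share was set against the HDM difference as a test. Replication members with an E2F-type match had a median WT difference of 0.53 on the log2 scale (n = 12) and those without one 1.33 (n = 7), and mitosis members with a CHR had 2.02 (n = 17) and those without one 2.22 (n = 5).

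**Figure D1:**
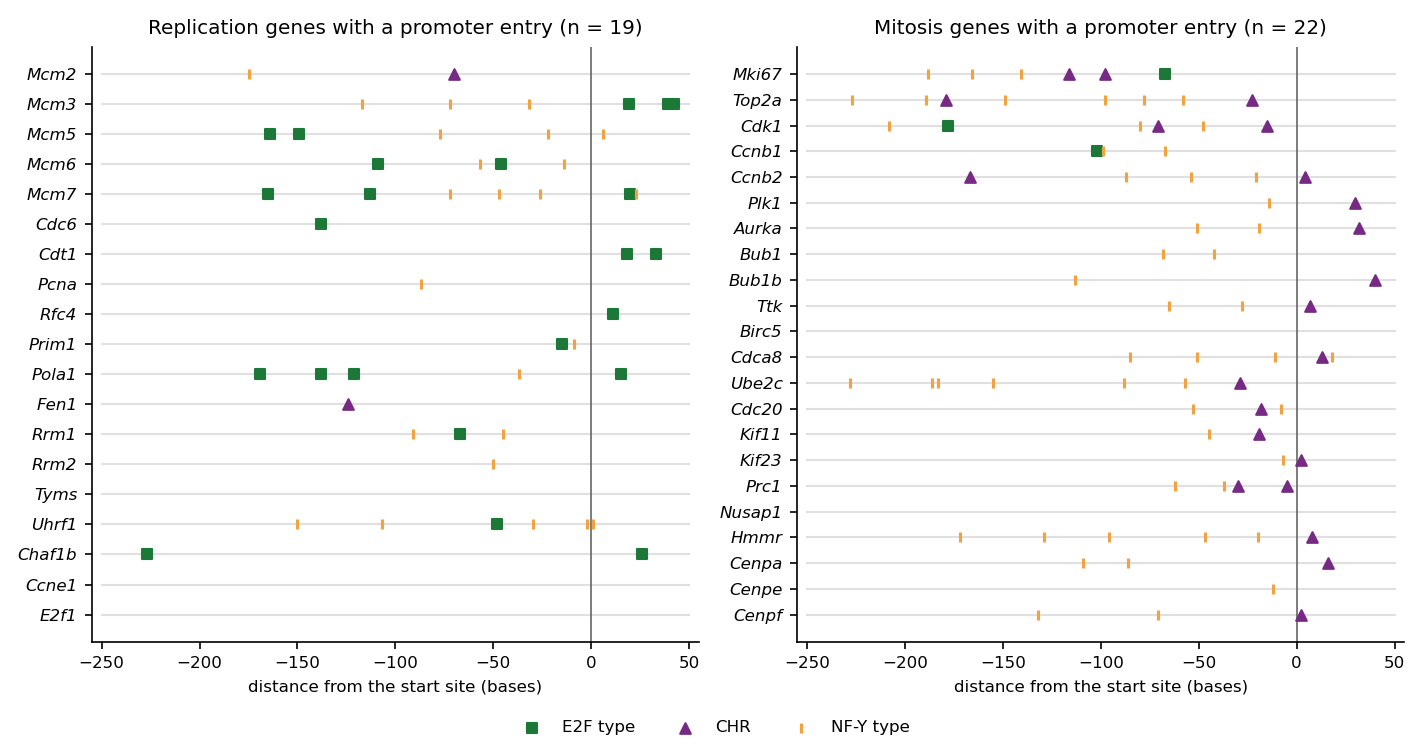
Positions of motif matches in the promoters of 19 replication and 22 mitosis genes. The x axis is the distance of the first matched base from the start site in bases; squares are E2F-type matches, triangles CHR matches and bars CCAAT boxes (labelled NF-Y type). Squares stand in 12 of 19 replication rows, and triangles in 17 of 22 mitosis rows, most of them near the start site.

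Both groups of genes stood higher with HDM than in naive skin in either genotype, mitosis genes by more. Relative to the summed basal keratinocyte markers, which differed in direction gene by gene, the replication medians turned negative. Reads were summed over each group and given per 1000000 reads of the library (RPM), with exact 95% counting intervals. Replication genes stood at 558.5 RPM (WT) and 675 RPM (KO-labelled) in naive skin, and at 928 and 1170.2 RPM with HDM. Mitosis genes stood at 522 and 483 RPM in naive skin, and at 1743 and 1770.4 RPM with HDM. Both HDM libraries thus lay above both naive ones for each sum. With HDM, the replication sum was 1.66-fold higher in WT (1.61 to 1.72) and 1.73-fold in KO-labelled skin (1.68 to 1.79), and the mitosis sum 3.34-fold (3.24 to 3.45) and 3.67-fold (3.55 to 3.78). Without the 8 members at 0 in KO-labelled naive skin, the mitosis ratios were 3.20 and 3.13. Reads of mitosis genes per read of replication genes were 0.935 (WT) and 0.715 (KO-labelled) in naive skin and 1.88 and 1.51 with HDM. In whole skin, more dividing cells and more of these transcripts per cell cannot be told apart. All intervals cover counting error only, since the reads carry no molecular identifiers.

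**Figure D2:**
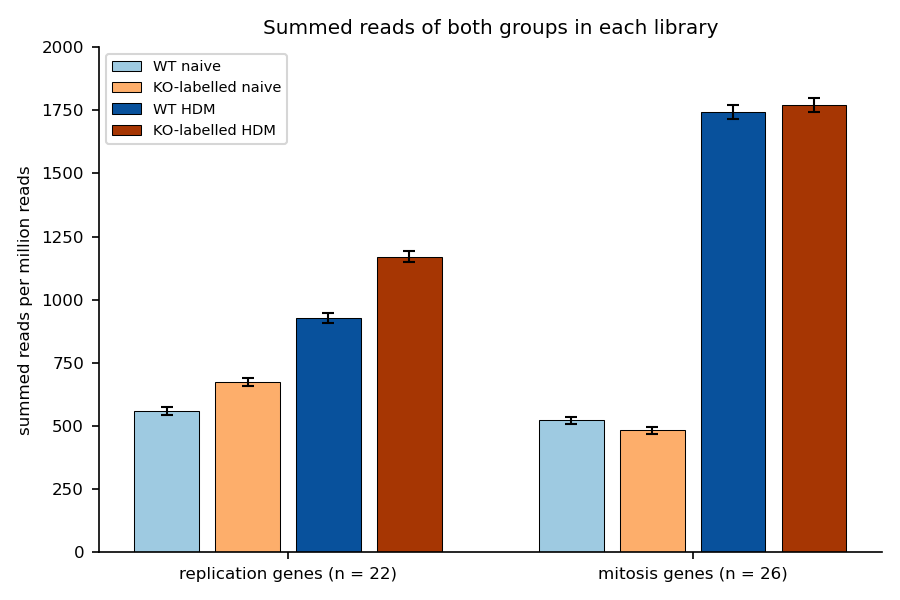
Summed reads of the 22 replication and 26 mitosis genes in RPM (reads per 1000000 reads of the library; y axis, linear), with exact 95% Poisson intervals for counting error as error bars. Mitosis genes stood at 522 and 483 in the naive libraries and at 1743 and 1770.4 in the HDM libraries.

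Gene by gene, a member was counted when its deposited log2 value differed by 1 or more, that is 2-fold, among 11600 measured genes, those with a mean log2 value over all libraries above 5.11, the median of every symbol. Of the members, 45 passed this filter, and Ccne1, Aurka and Bub1 did not. In WT skin, 18 of 24 mitosis genes were higher with HDM and 0 lower, where 14.5% of all measured genes were higher and 12.7% lower (27.2% in all). In KO-labelled skin 20 of 24 were higher and 0 lower, where 21.7% of all genes were higher and 18.2% lower (39.9% in all). Without the members at 0, it was 16 of 20 mitosis genes. Their median log2 difference was 1.90 in WT and 1.65 in KO-labelled skin (1.58 without the members at 0), beside 0.03 and 0.06 for all genes. Of 21 replication genes, 8 were higher in WT and 0 lower, with a median of 0.68, and in KO-labelled skin 9 were higher and 1, Cdc6, lower, with a median of 0.88 (0.78 without the member at 0). Differences were also set relative to the summed basal keratinocyte markers, a sum that was itself higher with HDM. The 8 markers did not share this direction. In WT 2 of them were 2-fold higher and 3 lower, and in KO-labelled skin 3 were higher and 3 lower. On that scale the replication medians changed sign to -0.28 in WT and -0.61 in KO-labelled skin, and the mitosis medians were 0.94 and 0.17.

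**Figure D3:**
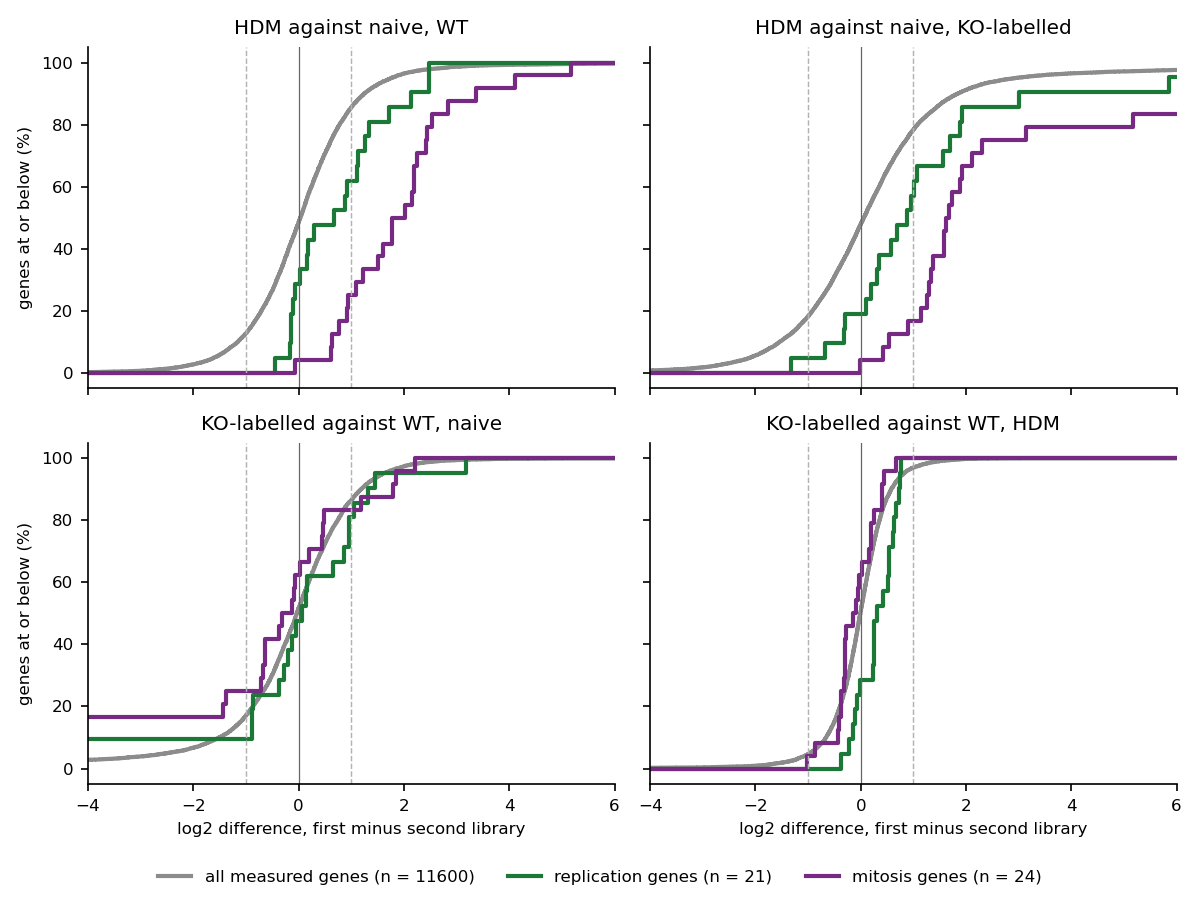
Share of genes (y axis, percent) at or below each log2 difference (x axis) for the 4 comparisons, with all 11600 measured genes in grey, 21 replication genes in green and 24 mitosis genes in purple; dashed lines mark 2-fold. With HDM the mitosis curve lies to the right of the grey one in both genotypes (medians 1.90 and 1.65 beside 0.03 and 0.06), on the deposited scale. The replication curve lies between them, and its medians change sign relative to the summed basal keratinocyte markers.

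In both genotypes at once, 21 of the 45 members were 2-fold higher with HDM, 5 replication and 16 mitosis genes, where 7.06% of all measured genes were. Of the 16, Ccnb1, Ccnb2, Hmmr and Cenpe stood at 0 in KO-labelled naive skin. None of the 45 was 2-fold lower in both, where 6.71% of all genes were. Both HDM libraries lay above both naive libraries for 31 members, 10 of 21 replication and 21 of 24 mitosis genes, where 30.2% of all genes had this order. Without the members at 0 it was 27 of 40. The reverse order, which 26.8% of all genes had, was seen for 1 member, Prim1. Of the 45 members, 11 stayed under 2-fold in both genotypes, Prim1 among them, so these counts overlap. The share of all genes that did so was not computed. In WT and not in KO-labelled skin, 5 members, Cdc6 among them, were 2-fold higher, where 7.41% of all genes were. In KO-labelled and not in WT skin it was 8 members (7 without Pola1, which is at 0 in KO-labelled naive skin), where 14.7% of all genes were, and whether these differ between genotypes was not tested. Across the 40 measured members with reads in every library, the HDM differences of WT and KO-labelled skin had a Pearson correlation of 0.512 and a Spearman correlation of 0.547. These are correlations across genes from 4 libraries, and genes are not independent replicates.

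**Figure D4:**
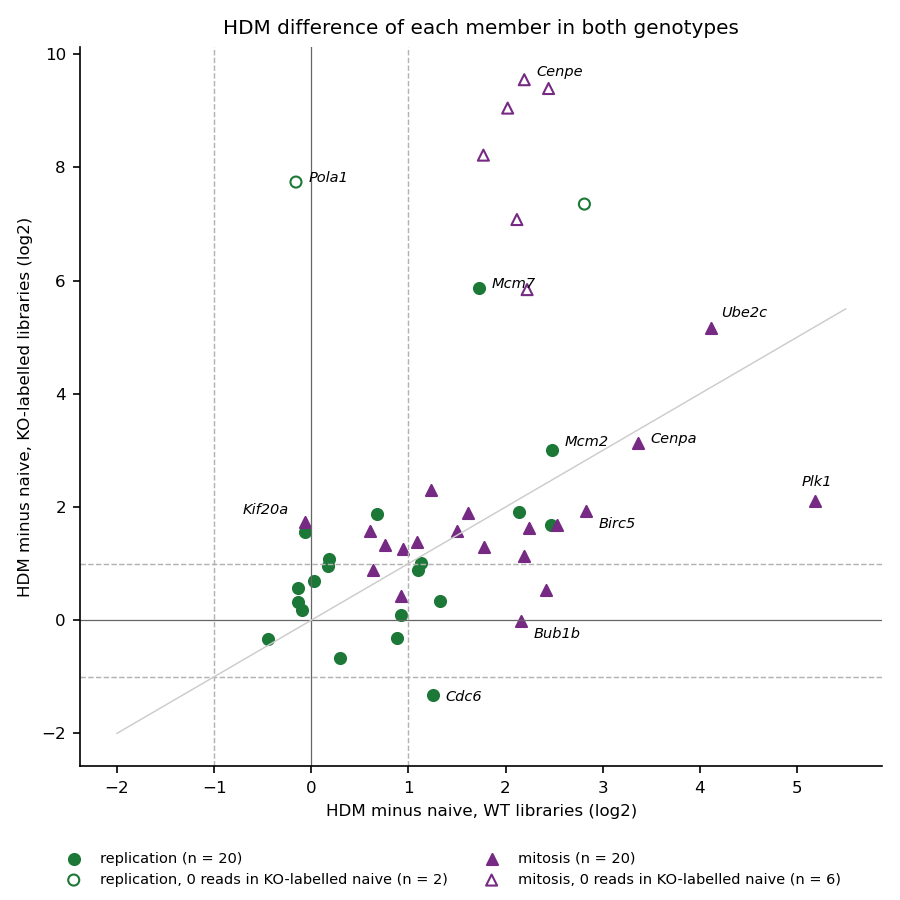
HDM minus naive log2 difference of each of the 48 members in WT (x axis) and KO-labelled libraries (y axis), with replication genes as circles, mitosis genes as triangles and dashed lines at 2-fold; open symbols are the 8 members at 0 reads in KO-labelled naive skin, whose height is set by the deposited pseudocount of 1. Most mitosis genes lie past 2-fold on both axes, Plk1 is farthest right at 5.18, and Cdc6 alone lies past 2-fold in opposite directions.

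Reads of each gene are given below in a fixed library order, first WT naive, then KO-labelled naive, then WT HDM and last KO-labelled HDM, and ratios with HDM first for WT and then for KO-labelled skin. The MCM genes encode the 6 subunits of the replicative helicase. Mcm2 (chr6:88883474-88898780, GRCm38) had 147 (WT) and 89 (KO-labelled) reads in naive skin and 810 and 717 with HDM. It was 5.62-fold higher with HDM in WT (4.71 to 6.75) and 8.08-fold in KO-labelled skin (6.48 to 10.2). Mcm5 had 76, 168, 331 and 634 reads in the same order, and was 4.45-fold (3.46 to 5.78) and 3.79-fold (3.19 to 4.51) higher. Each HDM library stood above both naive ones for Mcm2 and Mcm5. Mcm7 had 218, 11, 707 and 697 reads, and was 3.31-fold higher in WT (2.84 to 3.87) and 63.6-fold in KO-labelled skin (35.3 to 128). Its low value in KO-labelled naive skin sets the larger ratio. Cops6 lies on the opposite strand at its 3′ end, with 315, 467, 571 and 443 reads. Mcm3, with 571, 590, 629 and 1145 reads, and Mcm4, with 129, 398, 240 and 425, were under 2-fold in both genotypes. Mcm6 had 310, 724, 559 and 583 reads, so that HDM skin was 1.84-fold higher in WT (1.60 to 2.12) and 1.24-fold lower in KO-labelled skin (1.11 to 1.38). The subunits of 1 complex thus did not keep a common order over the libraries, although the RPM sum over the MCM genes was 2.30-fold higher in WT (2.16 to 2.45) and 2.08-fold in KO-labelled skin (1.98 to 2.20).

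Genes that license origins or build the moving helicase differed from gene to gene. Cdc6, which loads the MCM ring, had 20 (WT) and 214 (KO-labelled) reads in naive skin and 48 and 85 with HDM. With HDM it was 2.45-fold higher in WT (1.43 to 4.36) and 2.51-fold lower in KO-labelled skin (1.94 to 3.27), and 1.76% of all measured genes passed 2-fold in opposite directions in this way. The KO-labelled naive library was the high one. Cdt1, the partner of CDC6 in licensing, had 280, 244, 311 and 514 reads, and was 1.13-fold higher in WT (0.962 to 1.34) and 2.11-fold in KO-labelled skin (1.81 to 2.47). Gins2, a subunit of the GINS complex that travels with the helicase, had 349, 325, 311 and 481 reads and stayed under 2-fold. In Cdt1 and Gins2 the KO-labelled HDM library was the highest and the other libraries lay close together.

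Genes of the fork machinery had no common order. Their RPM sum was 1.17-fold higher with HDM in WT (1.087 to 1.256) and 1.42-fold in KO-labelled skin (1.33 to 1.51), or 1.28-fold without Pola1. Pcna, the sliding clamp, had 475 (WT) and 562 (KO-labelled) reads in naive skin and 473 and 902 with HDM. In WT its HDM level was 1.02-fold that of naive skin (0.893 to 1.16), within counting error. Prim1, the primase subunit, had 398, 493, 287 and 392 reads, and was lower with HDM by 1.36-fold in WT (1.16 to 1.59) and by 1.25-fold in KO-labelled skin (1.10 to 1.44). Rfc4, of the clamp loader, had 94, 58, 88 and 172 reads, with 1.05-fold lower in WT (0.774 to 1.42) and, for KO-labelled skin, 2.98-fold higher (2.20 to 4.08). Eif4a2, on the opposite strand at the 3′ end of Rfc4, had 1198, 1698, 814 and 1114 reads, and whether the counting told them apart is not known. Pola1, the catalytic subunit of polymerase alpha, had 188, 0, 165 and 227 reads, so that HDM was 1.12-fold lower in WT (0.901 to 1.38) and, for KO-labelled skin, higher by at least 75.9-fold, with a 0 taken as up to 3 reads. That bound rests on the zero in KO-labelled naive skin alone, since the other libraries lay between 165 and 227. Fen1, the flap nuclease that trims Okazaki fragments, had 238, 491, 587 and 623 reads, and was 2.52-fold (2.16 to 2.94) and 1.27-fold (1.13 to 1.44) higher with HDM.

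Genes of nucleotide supply stood higher with HDM in both genotypes. The summed reads of Rrm1, Rrm2 and Tyms were 2.37-fold higher in WT (2.18 to 2.56) and 2.25-fold in KO-labelled skin (2.10 to 2.42). Rrm2, the regulatory subunit of ribonucleotide reductase that is made in S phase, had 84 (WT) and 237 (KO-labelled) reads in naive skin and 461 and 764 with HDM. It was 5.60-fold (4.43 to 7.16) and 3.23-fold (2.79 to 3.76) higher with HDM, with both HDM libraries above both naive ones. Rrm1, the large subunit, had 632, 793, 1329 and 1455 reads, and was 2.15-fold (1.95 to 2.36) and 1.84-fold (1.69 to 2.01) higher. Tyms, which makes thymidylate, had 167, 102, 263 and 376 reads, and was 1.61-fold (1.32 to 1.96) and 3.70-fold (2.96 to 4.65) higher. A processed copy, Tyms-ps, had 31, 0, 31 and 52 reads of its own in the tables, so that reads of Tyms may be split with it.

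Of the genes that copy chromatin, Uhrf1, which brings the maintenance DNA methyltransferase to new DNA, had 112, 200, 241 and 402 reads in the library order given above. It was 2.20-fold (1.75 to 2.77) and 2.02-fold (1.70 to 2.40) higher with HDM. Chaf1b, a histone chaperone subunit, had 175, 191, 160 and 217 reads and differed within counting error in all 4 comparisons. At the entry to S phase, the cyclin E genes parted. Ccne1 had 15, 0, 109 and 173 reads, 7.42-fold higher with HDM in WT (4.31 to 13.7) and at least 57.8-fold for KO-labelled skin. Ccne2 had 559, 548, 498 and 680 reads, all within 1.25-fold between HDM and naive. E2f1, a transcription factor of this switch, had 120, 265, 145 and 165 reads, with KO-labelled naive skin the highest. It was 1.23-fold higher with HDM in WT (0.962 to 1.58) and 1.60-fold lower in KO-labelled skin (1.31 to 1.96).

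**Figure D5:**
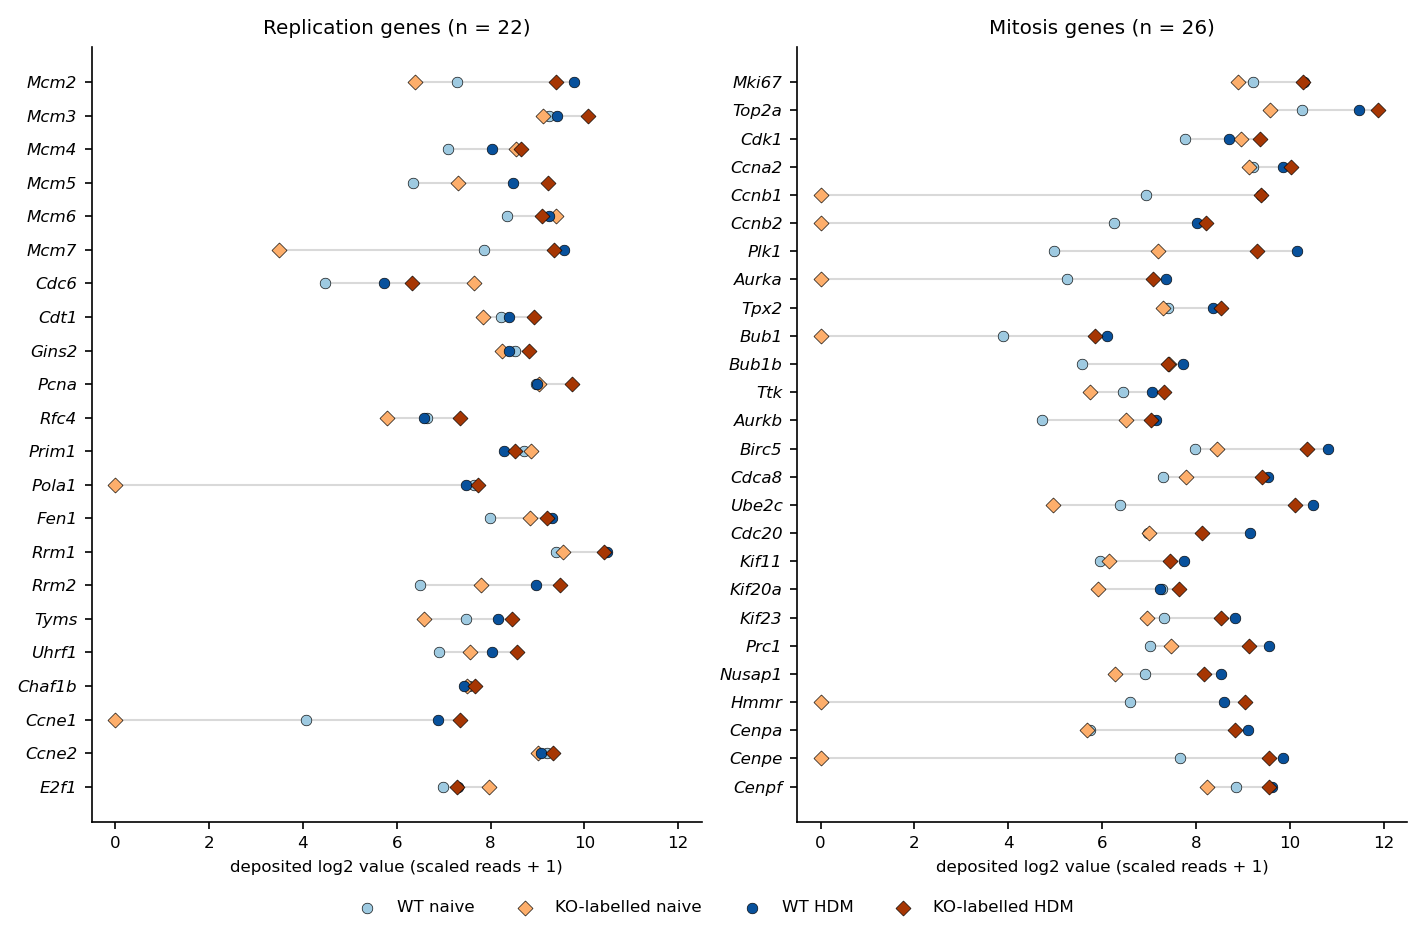
Deposited log2 value (x axis, log2 of scaled reads plus 1) of the 22 replication and 26 mitosis genes in each library, 1 point per library; circles are WT, diamonds KO-labelled, pale naive and dark HDM, and grey lines join the lowest and highest value. Both dark points lie to the right of both pale ones for most mitosis genes, and 8 members stand at 0 in KO-labelled naive skin.

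The general proliferation genes showed higher levels with HDM in either genotype. Mki67, which encodes the Ki-67 antigen used to stain cycling cells, had 563 (WT) and 511 (KO-labelled) reads in naive skin and 1174 and 1323 with HDM. It was 2.13-fold (1.92 to 2.36) and 2.60-fold (2.34 to 2.88) higher with HDM. Top2a, the topoisomerase that untangles sister chromatids, had 1157, 815, 2658 and 4014 reads. It was 2.35-fold (2.19 to 2.52) and 4.94-fold (4.58 to 5.33) higher. For both genes each HDM library stood above both naive ones.

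The kinase that drives entry into mitosis and its cyclins were less uniform. Cdk1 had 206, 529, 384 and 706 reads in the library order given above, and was 1.90-fold (1.60 to 2.27) and 1.34-fold (1.19 to 1.501) higher with HDM. KO-labelled naive skin stood above WT HDM skin, so the groups overlapped. Ccna2, cyclin A2, had 564, 598, 862 and 1109 reads, and was 1.56-fold (1.40 to 1.74) and 1.86-fold (1.68 to 2.06) higher. The B cyclins differed more in WT. Ccnb1 had 115, 0, 617 and 716 reads, 5.48-fold higher in WT (4.48 to 6.74) and at least 239-fold for KO-labelled skin. Ccnb2 had 71, 0, 240 and 316 reads, 3.45-fold higher in WT (2.64 to 4.56) and at least 106-fold for KO-labelled skin. In the HDM libraries the B cyclin genes stood within 1.15-fold of each other between genotypes, so the large bounds come from the zeros in KO-labelled naive skin. Annotated pseudogenes exist for both, and how the authors' counting treated them is not given in the sources used here.

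Polo and Aurora kinases build the spindle. Plk1, the Polo kinase, had 29 (WT) and 155 (KO-labelled) reads in naive skin and 1064 and 669 with HDM. It was 37.5-fold higher with HDM in WT (25.9 to 56.2), the largest fold of any member there, and 4.33-fold in KO-labelled skin (3.63 to 5.19). The naive libraries differed 4.74-fold (3.17 to 7.31), the KO-labelled one being higher. Aurka, the spindle pole kinase, had 35, 0, 152 and 143 reads, 4.43-fold higher in WT (3.05 to 6.60) and at least 47.8-fold for KO-labelled skin. Its activator Tpx2 had 160, 166, 303 and 396 reads, and was 1.93-fold (1.59 to 2.36) and 2.39-fold (1.99 to 2.89) higher.

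The spindle checkpoint holds cells until every chromosome is attached. Bub1 had 13, 0, 63 and 60 reads in the library order given above, 4.95-fold higher in WT (2.70 to 9.80) and at least 20.1-fold for KO-labelled skin. Bub1b had 44, 182, 196 and 180 reads, 4.55-fold higher in WT (3.27 to 6.46) and 1.01-fold lower in KO-labelled skin (0.816 to 1.25). WT naive skin alone was low for Bub1b. Ttk, the kinase at the top of the checkpoint, had 82, 56, 123 and 168 reads, and was 1.53-fold (1.15 to 2.05) and 3.01-fold (2.21 to 4.15) higher.

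The chromosomal passenger complex corrects wrong attachments and leads cytokinesis. Birc5, its subunit survivin, had 238 (WT) and 372 (KO-labelled) reads in naive skin and 1662 and 1409 with HDM. It was 7.13-fold (6.22 to 8.20) and 3.80-fold (3.39 to 4.27) higher with HDM. Cdca8, borealin, had 149, 235, 693 and 723 reads, 4.75-fold (3.97 to 5.71) and 3.09-fold (2.66 to 3.59) higher. The kinase Aurkb had 24, 97, 130 and 140 reads, 5.53-fold higher in WT (3.56 to 8.94) and 1.45-fold in KO-labelled skin (1.11 to 1.90). All 3 genes ranked WT naive lowest, KO-labelled naive next and both HDM libraries above. As a sum the complex was 6.15-fold higher in WT (5.54 to 6.84) and 3.17-fold in KO-labelled skin (2.91 to 3.45).

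Partners of the anaphase-promoting complex, the ubiquitin ligase that ends mitosis, had the largest HDM to naive ratio of summed reads among the roles, 9.69-fold higher with HDM in WT (8.36 to 11.3) and 8.68-fold in KO-labelled skin (7.40 to 10.2). Ube2c, its ubiquitin-conjugating enzyme (promoter site above), had 78, 32, 1336 and 1186 reads in the library order given above. It was 17.5-fold (13.9 to 22.3) and 37.2-fold (26.2 to 54.6) higher. Cdc20, its activator, had 118, 136, 531 and 299 reads, and was 4.59-fold (3.76 to 5.66) and 2.20-fold (1.80 to 2.72) higher. Elovl1 lies on the opposite strand at the 3′ end of Cdc20 and had 1296, 1249, 5598 and 3035 reads. Whether the counting used strand is not given in the sources used here, so reads of the pair cannot be told apart.

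Kinesins and spindle microtubule genes were 2-fold higher with HDM in 5 of 6 cases in WT, where 14.5% of all measured genes were, and in 6 of 6 in KO-labelled skin (5 of 5 without Hmmr, at 0 in its naive library), where 21.7% were. Prc1, which bundles the central spindle, had 122 (WT) and 187 (KO-labelled) reads in naive skin and 694 and 599 with HDM, 5.81-fold (4.78 to 7.10) and 3.21-fold (2.72 to 3.81) higher. Hmmr, a spindle assembly factor and hyaluronan receptor, had 90, 0, 361 and 563 reads, 4.09-fold higher in WT (3.24 to 5.22) and at least 188-fold for KO-labelled skin. Kif11 (58, 75, 197 and 184 reads), Kif23 (151, 131, 421 and 393) and Nusap1 (114, 82, 343 and 305) were between 2.46-fold and 3.73-fold higher in either genotype. The exception in WT was Kif20a, a kinesin of cytokinesis, with 147, 63, 138 and 211 reads, 1.04-fold lower in WT (0.822 to 1.33) and, for KO-labelled skin, 3.36-fold higher (2.53 to 4.53). Cdc23, on the opposite strand at its 3′ end, had 136, 63, 139 and 192 reads, nearly the same numbers, so the Kif20a values may hold the reads of its neighbour.

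Centromere and kinetochore genes were higher in both genotypes. Cenpa, the histone that marks centromeres, had 50 (WT) and 54 (KO-labelled) reads in naive skin and 513 and 482 with HDM. It was 10.5-fold (7.82 to 14.3) and 8.95-fold (6.75 to 12.1) higher, and the genotypes differed within counting error in naive skin and by 1.22-fold with HDM (1.08 to 1.39). Cenpe, a kinetochore motor, had 190, 0, 855 and 798 reads, 4.59-fold higher in WT (3.92 to 5.40) and at least 267-fold for KO-labelled skin. Cenpf, a large kinetochore protein, had 439, 319, 728 and 804 reads, and was 1.69-fold (1.502 to 1.91) and 2.53-fold (2.22 to 2.89) higher.

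Between genotypes, the HDM libraries were about as close for the members as for all genes. Among genes with at least 50 reads in both HDM libraries, the median absolute log2 difference was 0.30 for members and 0.28 for all genes. Some tissue markers differed more. In KO-labelled HDM skin the cartilage sum was 242-fold and the suprabasal sum 4.20-fold lower than in WT HDM skin. The sebaceous gland sum was 2.95-fold and the hair shaft and inner root sheath sum 2.51-fold higher, and the basal keratinocyte sum 1.01-fold lower. The part of this in the genotype differences of the members was not tested. KO-labelled HDM skin differed 2-fold from WT HDM skin in 0 of 21 replication and 1 of 24 mitosis genes, where 7.72% of all measured genes did, 3.06% higher and 4.66% lower. The exception was Cdc20, 2.04-fold lower in KO-labelled skin (1.77 to 2.36) on the deposited scale and under 2-fold in RPM. The RPM sum of the replication genes was 1.26-fold higher in KO-labelled HDM skin (1.23 to 1.296) and 1.18-fold on the deposited scale, with 15 of 21 members higher in sign and a median of 0.32. The mitosis sum differed 1.02-fold in RPM (0.994 to 1.04), within counting error on that scale. On the deposited scale it was 0.948-fold, with no interval computed, so its direction depends on the scale. Of the replication genes, Rfc4 differed most, 1.70-fold higher in KO-labelled HDM skin (1.31 to 2.23), and Mcm5 was 1.67-fold higher (1.46 to 1.91). After Cdc20, the mitosis gene that differed most was Plk1, 1.83-fold lower there (1.66 to 2.01).

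The naive libraries differed more. KO-labelled naive skin was 2-fold higher in 4 and lower in 2 of 21 replication genes, and higher in 4 and lower in 6 of 24 mitosis genes, where 13.6% of all genes were higher and 17.1% lower (30.7% in all). Without the members at 0, the mitosis genes past 2-fold were 6 of 20, not 10 of 24. Among genes with at least 50 reads in both libraries, the median absolute log2 difference of the members was 0.47 in naive skin (34 members) and 0.30 with HDM (47 members), beside 0.53 and 0.28 for all genes. Cdc6 was 9.48-fold higher in KO-labelled naive skin (5.99 to 15.8), Mcm4 2.73-fold (2.24 to 3.36) and Bub1b 3.67-fold (2.62 to 5.22). Mcm7 was 22.4-fold lower there (12.3 to 45.5), and Ube2c 2.75-fold (1.80 to 4.29). The replication sum was 1.21-fold higher (1.17 to 1.25). The mitosis sum was 0.925-fold (0.889 to 0.963), but 1.03-fold without the members at 0, so its direction rests on those zeros. Counting error alone was exceeded by 39 of the 48 members in naive skin and by 32 with HDM. The same count was not made for all genes, so it does not set the members apart. With 1 library a group, the genotype differences of the members have no animal spread to be set against.

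Other genes of the cycle were read from lists that hold no member. Of 33 measured further mitosis genes, 24 were 2-fold higher with HDM in WT and 24 in KO-labelled skin, with 0 lower in either and medians of 1.504 and 1.497. Without the 4 at 0 in KO-labelled naive skin it was 20 of 29 there. Of all measured genes, 14.5% were higher and 12.7% lower in WT, and 21.7% and 18.2% in KO-labelled skin, the shares beside which each count of these lists stands. Cdca2, a chromatin phosphatase subunit of mitotic exit, had 16 reads in WT naive and 182 in WT HDM skin, 11.6-fold higher (6.96 to 20.7). Pttg1, securin, went the other way, with 1485 and 943 reads, 1.54-fold lower (1.42 to 1.68). In KO-labelled skin, the midbody gene Cep55 had 0 and 535 reads, at least 179-fold higher, and the kinesin gene Kif15 had 257 and 199, 1.29-fold lower (1.07 to 1.56). Of 29 measured further replication genes, 7 were higher and 1 lower in WT (median 0.60), and for KO-labelled skin 18 were higher and 0 lower (median 1.53), or 16 of 27 without those at 0. Rfc5, of the clamp loader, had 51 and 341 reads in WT, 6.83-fold higher (5.07 to 9.35), and Rpa2, of the single-strand binding complex, had 1795 and 671, 2.62-fold lower (2.40 to 2.87). Prim2, the large primase subunit, had 0 and 166 reads with the KO label, at least 55.5-fold higher, and Dscc1, of an alternative clamp loader, had 24 and 14, 1.71-fold lower (0.849 to 3.57). Dscc1 did not pass the filter of measured genes and is not in these counts.

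Lists of cycle regulators were read against the same shares of all measured genes. Of the genes named below, Mybl2, E2f7, Cdk6 and Cdkn2a did not pass the filter of measured genes and are in none of the counts. Of 13 measured E2F, MYB and FOXM1 regulators, 5 were higher with HDM in WT and 6 in KO-labelled skin, and 0 were lower, with medians of 0.90 and 0.94. Mybl2, which encodes B-MYB, had 5 reads in WT naive and 93 in WT HDM skin, 18.99-fold higher (7.85 to 59.8), and Tfdp2, an E2F partner, had 424 and 251, 1.65-fold lower (1.41 to 1.94). E2f7, a repressive E2F, had 0 and 244 reads with the KO label, at least 81.6-fold higher, and Lin52, of the DREAM complex, had 110 and 72, 1.52-fold lower (1.12 to 2.08). Of 7 measured G1 cyclins and kinases, 1 was higher and 1 lower in WT, and for KO-labelled skin 3 were higher and 0 lower, and the WT count is near the share of all genes. Cdk4 had 216 and 716 reads in WT, 3.38-fold higher (2.90 to 3.96). Ccnd2, cyclin D2, had 4403 and 1795 reads in WT, 2.40-fold lower (2.27 to 2.54), and 3788 and 2754 in KO-labelled skin, 1.37-fold lower (1.31 to 1.44). Cdk6 had 0 and 33 reads with the KO label, at least 11.0-fold higher. Of 11 measured CDK inhibitors and pocket proteins, 0 were higher and 2 lower in WT, and for KO-labelled skin 3 were higher and 1 lower, the former near the share of all genes. Cdkn1c, the inhibitor p57, had 597 and 206 reads in WT, 2.84-fold lower (2.42 to 3.34), and 1899 and 191 in KO-labelled skin, 9.91-fold lower (8.54 to 11.6). Cdkn2a had 0 and 4 reads in WT and 0 and 12 in KO-labelled skin, too few to give a level in naive skin.

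Markers of other cell types, among them types that can divide, also differed between the libraries and had no common direction. The 8 basal keratinocyte markers summed to 7219 (WT) and 5056 RPM (KO-labelled) in naive skin and to 14058 and 13878 RPM with HDM, and all 8 had reads in every library. Krt5 and Krt14 made up most of the HDM sums, and 2 of the 8 markers were 2-fold higher and 3 lower in WT. The 5 suprabasal keratinocyte markers found summed to 15383, 17227, 6794 and 1617 RPM, and each had reads in every library. In KO-labelled HDM skin 4 of these 5 were 2-fold lower than in WT HDM skin, where 4.66% of all measured genes were. The largest of these differences was -11.3 on the log2 scale. The 6 wound keratinocyte markers summed to 411, 153, 42802 and 35333, with S100a8 and S100a9 at 0 in KO-labelled naive skin, and all 6 were 2-fold higher with HDM in both genotypes. The 14 hair shaft and inner root sheath markers summed to 41.8, 64.6, 2891 and 7264, with 8 of them at 0 in KO-labelled naive skin and Krt72 at 0 in all libraries. The 7 hair matrix markers summed to 667, 452, 490.01 and 799, with Shh at 0 in both naive libraries and Foxn1 at 0 in KO-labelled naive skin. The WT sum was lower with HDM, but most single markers were not. Of 6 measured, 4 were 2-fold higher and 1 lower in WT, where 14.5% and 12.7% of all measured genes were. In KO-labelled skin 4 were higher and 0 lower (3 of 5 without the one at 0), beside 21.7% and 18.2%. Fibroblast markers summed to 18917, 40196, 6949 and 5344, endothelial markers to 55.4, 64.9, 106 and 98.1, and macrophage markers to 196, 576, 431 and 331.
Of the blood cell lists, myeloid precursor markers had 23, 0, 8 and 30 reads in all, and B cell markers 5, 0, 10 and 4. Erythroid markers summed to 2695, 3083, 6438 and 3284 RPM in the library order given above. Neutrophil markers summed to 10.5, 0.403, 42.0 and 42.9 RPM, with 2 of 4 at 0 in KO-labelled naive skin. T cell markers summed to 11.1, 25.1, 16.0 and 7.22 RPM. Markers of salivary and lacrimal secretion summed to 63184 and 7495 in the naive and to 68.2 and 7.42 in the HDM libraries, and cartilage markers to 2576, 2261, 1506 and 6.23, so the libraries also differed in the tissue they held. The part of these cell types in the values of the replication and mitosis genes was not tested.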

How the data were processed

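Skin RNA of 4 mouse groups was profiled, 1 library each, from 500 ng of total RNA per the labels' protocols. Each library has a table, deposited by the authors, of log2 values by gene symbol (23282 lines). Bowtie2, bedtools and the build mm10 stand in the submitters' processing notes, without version. For normalization, annotation, filters and strand, nothing is stated in the sources used here. Converted values were near whole multiples of a step (WT naive 1.06, KO-labelled naive 0.936, WT HDM 1.08, KO-labelled HDM 0.939). The scale is thus log2 of scaled reads plus 1. Division by the step gave whole reads within 0.1 for 95.6% to 99.1% of genes with up to 200 reads, and larger numbers are approximate. The recovered totals were 9591422, 9927355, 9428416 and 10108661 reads in that order.

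Left out were 35 symbols on more than 1 line (79 lines). Measured genes had a mean log2 value above 5.11. Differences are those of deposited log2 values; sums are per 1000000 recovered reads (RPM). Intervals of ratios are exact at 95% (Clopper-Pearson, given the total of both reads, on the deposited scale for single genes). A 0 was taken as up to 3 reads, per library. Named genes were, in each role, the largest HDM difference in each genotype and any member past 2-fold in opposite directions or between genotypes under HDM; in each pathway list, the extreme in each direction with at least 10 reads in 1 library. Other members were named after their values were seen. The members and lists were chosen with earlier results of these data known. Alternatives were other scalings, filters, pseudocounts and thresholds. Motif positions count from the start site. Scripts used numpy 2.4.6, scipy 1.17.1, pandas 2.3.3 and matplotlib 3.10.9 under Python 3.11.15, tested on simulated data. Gene positions and promoters come from RefSeq on GRCm38.p6, and exons and overlaps from GENCODE on GRCm38. One promoter site is not reported here.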

Additional observations from a re-analysis of the deposited data

Results flagged for a closer look

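In 13 members with reads in every library, the sign of a difference turned between both arms of a comparison and the difference exceeded counting error in each arm. Members whose sign turned within counting error, or that stood at 0 in a library, are not listed. Each arm is a pair of single libraries, and none of these differences between arms was tested. The share of all genes that turned in this way was not computed, so the count does not set the members apart. With HDM minus naive on the log2 scale, Mcm6 was 0.88 in WT and -0.31 in KO-labelled skin, and Cdc6 was 1.25 and -1.32.

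With KO-labelled minus WT, 7 of these members were lower in naive and higher in HDM skin. Cdt1 was -0.37 in naive and 0.53 in HDM skin, Gins2 -0.28 and 0.43, and Rfc4 -0.86 and 0.76. Tyms was -0.88 and 0.32, Ccne2 -0.20 and 0.25, Top2a -0.68 and 0.40, and Kif20a -1.38 and 0.41. The reverse was seen in 4 of them. Plk1 was 2.21 in naive and -0.87 in HDM skin, Bub1b 1.85 and -0.32, Birc5 0.47 and -0.44, and Prc1 0.44 and -0.41. Gins2, Rfc4, Ccne2, Kif20a and Prc1 overlap a gene on the opposite strand at the 3′ end, as do Mcm7, Fen1 and Cdc20. The neighbours differ in reads. Rccd1, beside Prc1, had only 0, 3, 2 and 4 reads in the library order given above, and Gm10143, beside Fen1, had no value. Gse1, beside Gins2, had 435, 509, 354 and 557, and Ints8, beside Ccne2, had 263, 550, 222 and 291.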

How the results depend on the processing

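No paired analysis was possible because each group held 1 library, and no replicate could be left out for the same reason. The search for protein motifs was not run, since no protein table was used here. Of 96 alternative values of the counts of members past 2-fold, 78 stayed within 1.5 times. Relative to basal keratinocyte markers, which moved the median of all genes by -0.96 (WT) and -1.48 (KO-labelled) with HDM and by 0.64 between naive libraries, replication genes higher with HDM were 3 in WT and 3 in KO-labelled skin (8 and 9 as reported), mitosis genes in KO-labelled skin 6 (20), replication genes differing between naive libraries 10 (6), and mitosis genes differing between HDM libraries 0 (1). On that scale Uhrf1 (-0.47) and Cdc20 (-0.34) reversed with HDM in KO-labelled skin. At 4-fold, the replication counts with HDM were 3 and 3, the mitosis count in KO-labelled skin 8, the naive genotype counts 3 and 5, and the mitosis count between HDM libraries 0. At 1.5-fold, replication genes differing between genotypes were 13 in naive and 6 in HDM skin, and mitosis genes in HDM skin 3. Cdc20, the only mitosis gene past 2-fold between HDM libraries, left 0 in RPM, in RPM without the 50 top genes and ribosomal RNA, and with a pseudocount of 20. Without the members at 0 in KO-labelled naive skin, an alternative added after seeing the data, mitosis genes differing between naive libraries were 6 (10), and the summed ratios were 1.67 for replication with HDM in KO-labelled skin, 1.26 between naive libraries, and for mitosis 3.20 and 3.13 with HDM and 1.03 between naive libraries. With totals that leave out the 50 top genes and ribosomal RNA, the genotype ratios were 1.13 (naive) and 1.20 (HDM) for replication, and 0.866 and 0.968 for mitosis. RPM moved the median of all genes by 0.12 between naive libraries. The mitosis genotype medians, -0.22 in naive and -0.12 in HDM skin, were 0.42 and 0.002 relative to basal markers. Members under about 20 reads have intervals spanning 3-fold or more.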
